A study of Mus musculus with 2254 samples.

Results

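The cells described here are mural cells of the mouse brain that carried the smooth muscle actin gene Acta2 together with as much or more mRNA of the pericyte-enriched genes Rgs5 and Vtn, and that lacked the smooth muscle gene Cnn1. They were chosen from each cell's CPM, its read counts scaled to an equal total per cell: Acta2 of at least 1000 CPM, Cnn1 under 50 CPM, and Rgs5 plus Vtn at or above Acta2. Cells with endothelial, ependymal or other smooth muscle subset markers were left out (Cldn5 plus Pecam1 under 200 CPM, and Ccdc153 plus Tmem212, Pappa2 plus Dmp1, and Rarres1 plus Myl1 plus Angpt4 each under 50 CPM). This gave 305 members among the 2252 cells with at least 50000 counts, of 2254 deposited cells. Because the values of these genes chose the members, their levels are given as a description.

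All cells came from the brains of adult C57BL/6 mice with the genotype SM22-Cre;Rosa26-stop-tdTomato, in which the promoter of the smooth muscle gene SM22 drives Cre and so turns on a red reporter in mural cells. The compared groups were Notch3 KO cells, of which 234 were members, and Notch3 WT cells, of which 71 were members, so reporter and Cre were common to both. Cells were sorted by fluorescence into 384-well plates and sequenced by Smart-seq2, which copies full-length polyadenylated RNA. KO cells filled plates 043, 467 and 471, with 93, 64 and 77 members, and WT cells filled plates 044, 468 and 469, with 54, 4 and 13 members. Genotype and plate cannot be told apart. The labels named no animal, so each genotype is 1 sample, no test between genotypes was possible, and the spread over plates is a description only. Members had a median of 288677 counts (52546 to 488117) and a median of 4164 genes per cell.

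Mural cells wrap brain vessels. Smooth muscle cells ring the arteries and arterioles and contract through an actin and myosin apparatus, while pericytes sit within the basement membrane of capillaries and are known for genes such as Rgs5, Pdgfrb, Kcnj8 and Abcc9. Cells at the arteriole-to-capillary passage carry both kinds of genes. Notch3 is a receptor of the mural lineage that, when bound by a ligand such as Jag1 on a neighbouring cell, releases a fragment that acts with Rbpj on target genes including Heyl and Nrarp.

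The promoters of the pair of genes that define these cells are shown because they stand for the smooth muscle and the pericyte side of the rule. Each line gives the 250 bases before the annotated start on the gene's strand (RefSeq, GRCm38.p6). The Acta2 window is chr19:34255374-34255623, minus strand, and the Rgs5 window is chr1:169655251-169655500, plus strand. Capitals mark CArG boxes, the element bound by serum response factor, searched as CC, 6 bases of which at most 1 is not A or T, and GG, a pattern that covers both strands.
Acta2: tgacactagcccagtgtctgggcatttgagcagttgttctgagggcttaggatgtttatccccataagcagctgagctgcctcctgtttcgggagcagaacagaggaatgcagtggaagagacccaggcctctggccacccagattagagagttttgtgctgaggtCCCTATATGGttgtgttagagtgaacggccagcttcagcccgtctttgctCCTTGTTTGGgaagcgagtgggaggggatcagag
Rgs5: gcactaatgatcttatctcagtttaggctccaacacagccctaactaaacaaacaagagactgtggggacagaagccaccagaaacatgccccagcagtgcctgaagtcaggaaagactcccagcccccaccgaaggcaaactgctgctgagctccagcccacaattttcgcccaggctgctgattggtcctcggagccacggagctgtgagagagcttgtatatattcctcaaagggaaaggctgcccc
The Acta2 window held 2 such matches and the Rgs5 window 0. Of the 32851 windows of this length in the table, 8.59% held at least 1 match.

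Notch3 mRNA was lower in KO members but not absent, in a design where the deleted part is not described in the labels. The gene (GRCm38 chr17:32120820-32166852, minus strand) was at 99.9, 120 and 126 CPM on KO plates 043, 467 and 471, against 382 and 1487 CPM on WT plates 044 and 469, where the counts of a plate's members were summed and scaled by the trimmed mean of M values (TMM). The KO plates lay close together and below both WT plates, which lay far apart. The log2 difference was -2.70 (SD over plates 0.17 for KO and 1.39 for WT), -1.92 between plates 043 and 044 and -3.59 between plates 467 and 471 and plate 469. Notch3 reads were found in 79.1% of KO and 94.0% of WT members. The 4 members of WT plate 468 had 1023 CPM, and this plate is left out of values per plate unless named. Gm17276, which lies antisense to Notch3 and whose reads cannot be told apart from it without strand, was at 0.26, 1.85 and 1.87 CPM on the KO plates, against 14.2 and 32.8 CPM on the WT plates.

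The members carried their defining genes at similar levels in both genotypes, except for Vtn. Rgs5, which encodes a regulator of G protein signalling, was at 7155, 5731 and 5044 CPM on KO plates 043, 467 and 471, against 6965 and 4975 CPM on WT plates 044 and 469. Acta2 was at 5119, 4822 and 4219 CPM on the KO plates, against 5336 and 3632 CPM on the WT plates. The genotypes overlapped for both genes. Vtn, which encodes the matrix protein vitronectin, was at 3571, 2931 and 3057 CPM on the KO plates, against 2169 and 1695 CPM on the WT plates, and every KO plate was above both WT plates. Single cells ranged widely, with Rgs5 at 8.38 to 22441 CPM on KO plate 043 and 13.1 to 13187 CPM on WT plate 044. There were 4 members with Rgs5 under 1000 CPM, of which 3 were KO, that entered through Vtn, and 187 members had Rgs5 alone at or above Acta2.

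The remaining genes that mark these cells were found in most or many members. Higd1b, a mitochondrial protein gene enriched in pericytes, was at 396, 386 and 502 CPM on the KO plates, against 408 and 427 CPM on the WT plates. Ndufa4l2, which encodes a subunit-like mitochondrial protein induced by low oxygen, was at 134, 199 and 228 CPM on the KO plates, against 213 and 319 CPM on the WT plates. Lin7a, which encodes a scaffold protein, was at 326, 216 and 134 CPM on the KO plates, against 164 and 139 CPM on the WT plates, and had reads in 53.4% of KO and 41.8% of WT members. The genotypes overlapped for all 3 genes. These markers were named with earlier results of these data known, so they describe the cells and do not check their label. A list of 28 pericyte markers includes these 3 genes, Rgs5 and Vtn. From that list 17 were found in at least 50% of members and 11 in fewer. Pdgfrb was found in 99.3% of members, Cspg4 in 95.4%, Slc38a11 in 91.1% and P2ry14 in 70.8%. Kcnj8 was found in 38.4%, Abcc9 in 32.5%, Atp13a5 in 23.6%, Anpep in 20.3% and Ggt1 in 0.656%. Neither position along a vessel nor time was measured, so these data do not bear on a transition.

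The rule cut through a continuous cloud of cells on one side and an empty gap on another. The lowest Acta2 of a member was 1064 CPM, and the highest Acta2 of a cell that missed only this threshold was 956 CPM. The ratio of Rgs5 plus Vtn to Acta2 had a median of 1.76 and a maximum of 8.62 in members, 25 members lay at ratios from 1 to 1.1, and 34 cells just outside lay at 0.9 to 1. Cnn1 reached 16.8 CPM at most in members, 268 members had 0 Cnn1 reads, and the lowest Cnn1 of an otherwise matching cell above the limit was 83.3 CPM. A further 65 cells met every condition but an exclusion of other markers, and 10 met every condition but that on Cnn1.

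**Figure D1:**
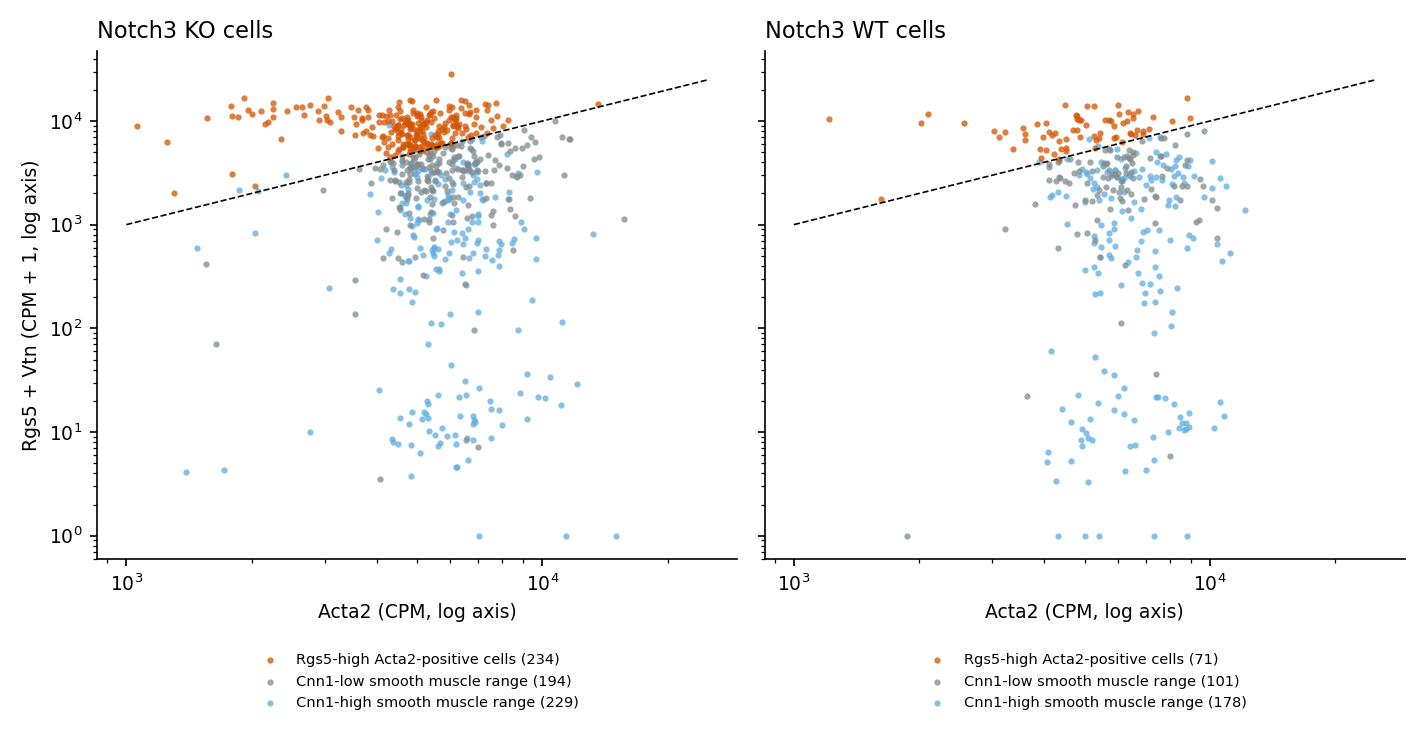
Each point is 1 cell with Acta2 of at least 1000 CPM, in Notch3 KO (left) and WT (right) cells. The x axis is Acta2 in CPM and the y axis Rgs5 plus Vtn in CPM plus 1, both log axes, and numbers of cells are in the legend. Members (orange) lie on or above the dashed line of equal values by construction, and the neighbouring Cnn1-low cells (grey) continue directly below it.

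A pair of neighbouring ranges were made from the same rule to place the members: a Cnn1-low smooth muscle range with Rgs5 plus Vtn below Acta2 (295 cells) and a Cnn1-high smooth muscle range with Cnn1 of at least 50 CPM (407 cells). Median totals were 288677 counts in members, 265787 in the Cnn1-low and 299186 in the Cnn1-high range, and median genes per cell were 4164, 4110 and 4308, values that bear on 2 cells in 1 well, for which no caller was run. Since the same cells were divided by a rule on genes that vary with all others, these comparisons carry no test. Values were scaled together for the 3 ranges, differences were taken within each of the 5 plates with at least 10 members, and a gene was counted if its mean difference was at least 2-fold with the same sign on every plate.

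Members carried more mRNA of capillary pericyte genes than the Cnn1-low range. Of 10599 genes measured, 283 (2.67%) were counted as higher and 194 (1.83%) as lower in members. Of 25 pericyte markers outside the rule, 8 were counted as higher and 0 as lower, with a median log2 difference of 0.59, against -0.02 over all genes. On every plate 11 of the 25 were higher at any size, against 6.52% of all genes, and 2 were lower, against 6.36%. Car4, a carbonic anhydrase gene, was at 638, 469, 383, 266 and 564 CPM in members of plates 043, 044, 467, 469 and 471, against 43.3, 62.6, 54.8, 0.825 and 17.6 CPM in the Cnn1-low range. It was the gene with the largest difference, and no plate overlapped. Kcnj8 and Abcc9, which encode the pore and the sulphonylurea subunit of a vascular potassium channel, averaged 209 and 83.8 CPM in members, against 47.9 and 7.63 CPM in the Cnn1-low range (mean log2 differences 2.26 ± 0.83 and 3.11 ± 1.66, SD over 5 plates). The transporter genes Atp13a5 and Slc6a20a followed with differences of 4.01 ± 2.40 and 3.56 ± 2.42. Eps8, Rftn1, Cpm, Sema6d, Thbd and the unnamed gene Gm17120 were the others among the 10 largest, beside Lin7a.

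Other pericyte-associated genes barely separated the members from their Cnn1-low neighbours. Pdgfrb, the receptor through which mural cells are recruited, averaged 1259 CPM in members, against 833 CPM in the Cnn1-low range (0.59 ± 0.21). Cspg4, the gene of the NG2 proteoglycan, averaged 678 CPM in members, against 676 CPM. The amino acid transporter gene Slc38a11 averaged 622 CPM in members, against 654 CPM, and Rgs4, a relative of Rgs5, 2917 CPM, against 3090 CPM. For these last 3 genes the sign varied over plates. Basement membrane genes went in both directions, with 4 of 21 counted as higher, 4 as lower and a median of -0.04. Lamc3, Nid1 and Lama2 were higher by 1.38 ± 0.24, 1.07 ± 0.31 and 1.92 ± 0.63, and Lamb1 was also counted as higher. Counted as lower were Col4a6, Col18a1, Hspg2 and Itga8.

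Of 27 contractile genes measured outside the rule, 20 were lower in members on every plate, against 6.36% of all genes at any size. Of these 1, Synpo2, was lower by at least 2-fold in the mean. On every plate 2 of the 27 were higher, against 6.52% of all genes. Myh11, the smooth muscle myosin heavy chain gene, averaged 3094 CPM in members, against 4085 CPM in the Cnn1-low range, a log2 difference of -0.43 ± 0.23. Tagln and Tpm2, genes of actin-binding proteins, differed by -0.43 ± 0.15 and -0.44 ± 0.13, and Csrp1, a smooth muscle LIM protein gene, by -0.83 ± 0.14. The largest deficits lay outside this list, in Efhd1 (-3.59 ± 2.18), Prkag2 (-3.05 ± 2.17), Pdgfc (-2.95 ± 1.84), Plin4 (-2.74 ± 1.47) and Npnt (-2.53 ± 1.89), which encode a calcium-binding mitochondrial protein, a subunit of the energy-sensing kinase AMPK, a platelet-derived growth factor, a lipid droplet protein and nephronectin. Fosl2, Col18a1, Ptgis, Cdkn1a and Pkp4 completed the 10 largest.

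Immediate early genes respond within minutes to activity and to dissociation of tissue. Of 30 immediate early and stress genes, 15 were lower in members on every plate against the Cnn1-low range, beside the same 6.36% of all genes, and 3 of them by at least 2-fold, with a median of -0.76. Fos averaged 1988 CPM in members, against 3344 CPM, and Junb 525 CPM, against 973 CPM. The transcription factor genes Klf2 and Klf4, which in endothelium respond to flow, averaged 64.0 and 45.0 CPM in members, against 168 and 160 CPM in the Cnn1-low range.

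The distance to the Cnn1-high range ran the same way and was longer. Of 10701 genes, 389 (3.64%) were counted as higher and 433 (4.05%) as lower in members. Of the 25 pericyte markers, 19 were higher on every plate at any size, against 7.42% of all genes, and 13 were counted as higher, among them Pdgfrb (1.29 ± 0.21), Kcnj8 (4.00 ± 1.38) and Ndufa4l2, which averaged 223 CPM in members, against 24.5 CPM. Lower in members on every plate at any size were 1 of the 25 and 11.3% of all genes. Of 28 contractile genes, 22 were lower on every plate and 7 by at least 2-fold, namely Actg2, Smtn, Synm, Synpo2, Ppp1r14a, Csrp1 and Pdlim7. Actg2, the enteric-type smooth muscle actin gene, was at 7.31, 13.7, 0, 0 and 0.116 CPM in members of plates 043, 044, 467, 469 and 471, against 244, 339, 169, 187 and 146 CPM in Cnn1-high cells. Eln, the elastin gene of arterial walls, averaged 106 CPM in members, against 298 CPM, and Kcnma1, the pore gene of a calcium-activated potassium channel, 8.21 CPM, against 91.9 CPM. Of 29 immediate early and stress genes, 19 were lower on every plate, 9 of them by at least 2-fold. Notch3 itself averaged 456 CPM in members, against 252 CPM in Cnn1-high cells (0.91 ± 0.31), and was higher in members on every plate, KO and WT.

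**Figure D2:**
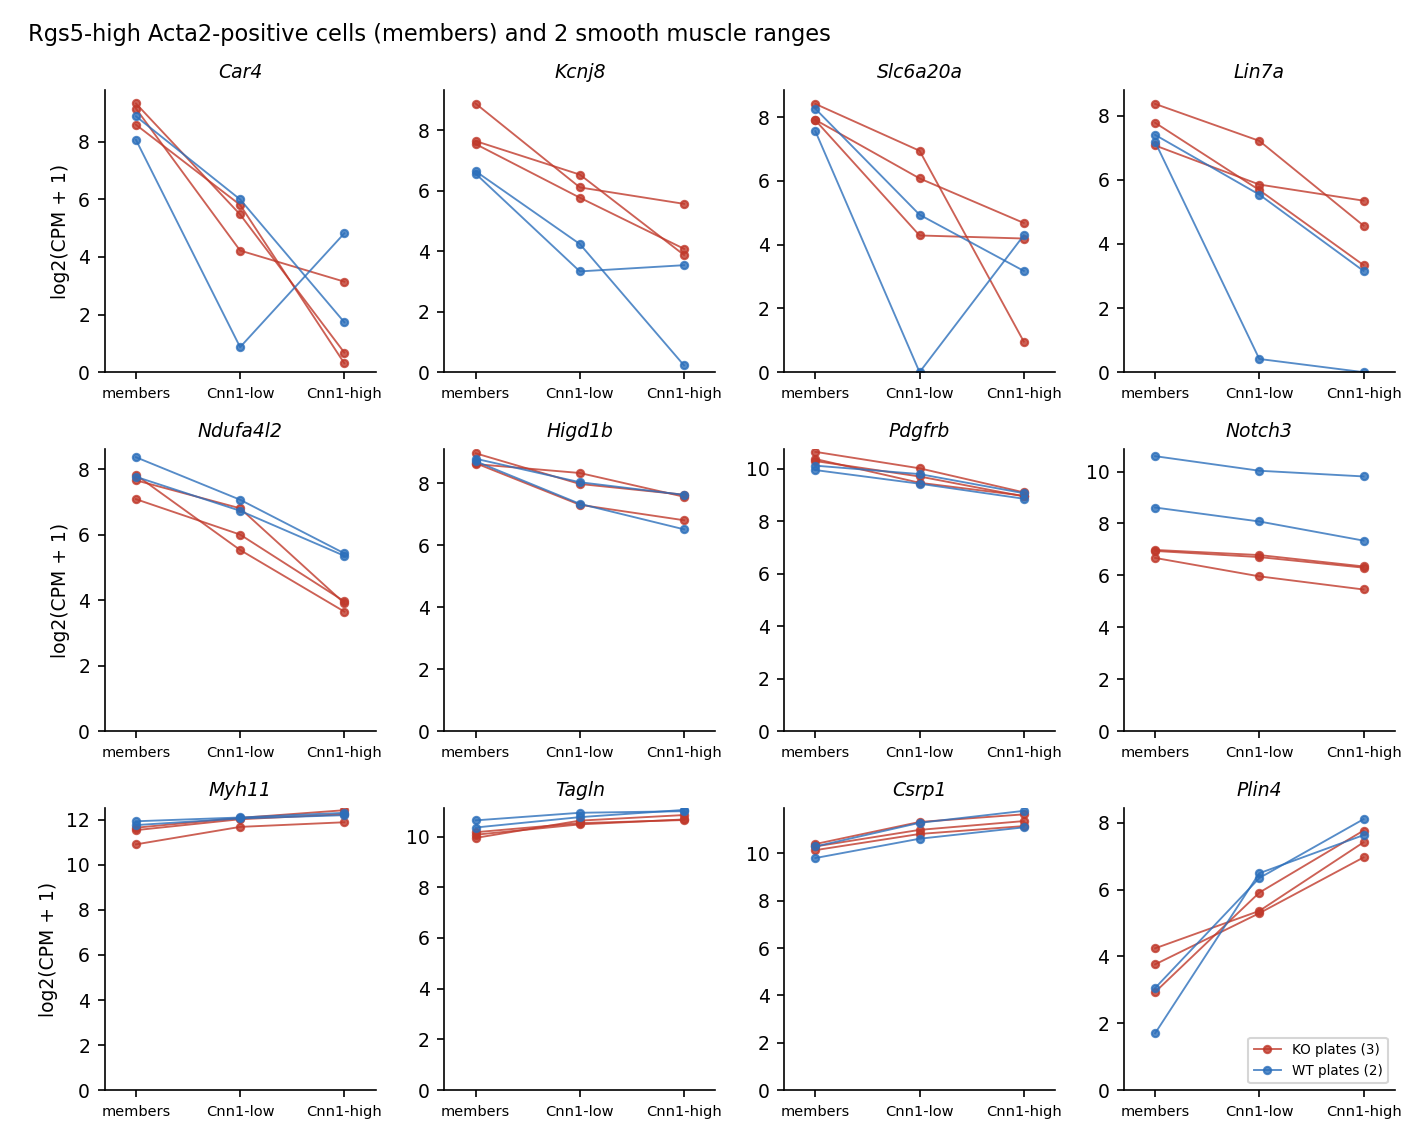
Levels of 12 genes, as log2(CPM + 1) on the y axes, in members and in the Cnn1-low and Cnn1-high smooth muscle ranges; each line joins the values of 1 plate (red, 3 KO plates; blue, 2 WT plates). Car4, Kcnj8, Slc6a20a and Lin7a stood highest in members on every plate, while Plin4 and Csrp1 stood lowest there.

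On the other side, few cells had high Rgs5 without Acta2. A range with Acta2 under 1000 CPM and Rgs5 plus Vtn of at least 1000 CPM held 153 cells, but most of them had Vtn with little Rgs5. Requiring at least 1000 CPM of Rgs5 left 15 cells, 12 of them WT (1 on plate 044, 7 on 468 and 4 on 469). Their pooled levels are set beside those of the members as a description. Atp13a5 was at 146 CPM in members and 2863 CPM in the 15 cells, Abcc9 at 105 and 1491 CPM, Kcnj8 at 236 and 1227 CPM, Anpep, an aminopeptidase gene of pericytes, at 17.1 and 234 CPM, and Ggt1 at 2.83 and 431 CPM. Rgs5 was at 5987 CPM in members and 6403 CPM in the 15 cells, Cspg4 at 634 and 616 CPM, and Pdgfrb at 1310 and 1817 CPM. Slc38a11, Rgs4 and Lin7a were at 565, 2852 and 206 CPM in members, above 273, 1418 and 39.0 CPM in the 15 cells. Each plate held at most 7 of the 15 cells, and no test was possible.

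Within the members, the share of Acta2 in the sum of Acta2, Rgs5 and Vtn had a lowest value of 0.104 and cannot exceed 0.5 by the rule. Its median was 0.343, 0.379 and 0.355 in KO cells of plates 043, 467 and 471, against 0.374 and 0.362 in WT cells of plates 044 and 469. Spearman correlations of each gene with this share were computed over the cells of each plate (93, 64, 77, 54 and 13 cells) and averaged, for 2432 genes found in at least 50% of members. They describe these cells, which share library and depth. The share itself had correlations between -0.15 and 0.14 with the total count, and with the number of genes found of -0.31 on KO plate 043 and 0.33 on KO plate 471, where its part was not tested. With the same sign on every plate, 106 genes had a mean correlation of at least 0.2 and 44 of at most -0.2.

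Among the 8 most positive genes, 5 were on the contractile list. Csrp1 had a mean correlation of 0.62 (0.47 to 0.70 over plates), Myh11 0.49, Tpm2 0.46, Tagln 0.45 and Myl6, a myosin light chain gene, 0.44. Sorbs2, an adaptor protein gene, Ltbp1, which encodes a binder of latent transforming growth factor beta, and Sparcl1, a secreted glycoprotein gene, had 0.46, 0.45 and 0.45. Myh11 averaged 880, 1492 and 1641 CPM in cells with a share under 0.3 on KO plates 043, 467 and 471, and 2018, 3828 and 3909 CPM in cells with a share of 0.4 to 0.5. On WT plate 044 it averaged 2234 and 3697 CPM in these classes. WT plate 469, with 4 and 6 cells in these classes, gave 4021 and 4586 CPM, so the upper class was the higher one on each plate.

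The 8 most negative genes were of mixed kinds. Sparc, the gene of an acidic matrix-binding glycoprotein, had a mean correlation of -0.40, the dystrophin gene Dmd -0.39, Phlda1 -0.39, the laminin gene Lama2 -0.35, the septin gene Sept7 -0.34, Pdgfrb -0.34 and Rarres2, the chemerin gene, -0.33, beside the unnamed gene Gm28592 (-0.38). Pdgfrb averaged 1874, 1839 and 1834 CPM at a share under 0.3 on KO plates 043, 467 and 471, and 1246, 1088 and 1092 CPM at 0.4 to 0.5. On WT plate 044 it averaged 1989 and 764 CPM. Notch3 had a mean correlation of -0.23, with the same sign on all 5 plates. Higd1b had -0.06, with signs that varied, and Cox4i2 -0.11. Of the 8 most positive genes 5 had a promoter window in the RefSeq table and 2 of these, Ltbp1 and Myl6, held a CArG match as defined above, and of the 8 most negative genes 3 had a window and 2, Dmd and Lama2, held one.

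**Figure D3:**
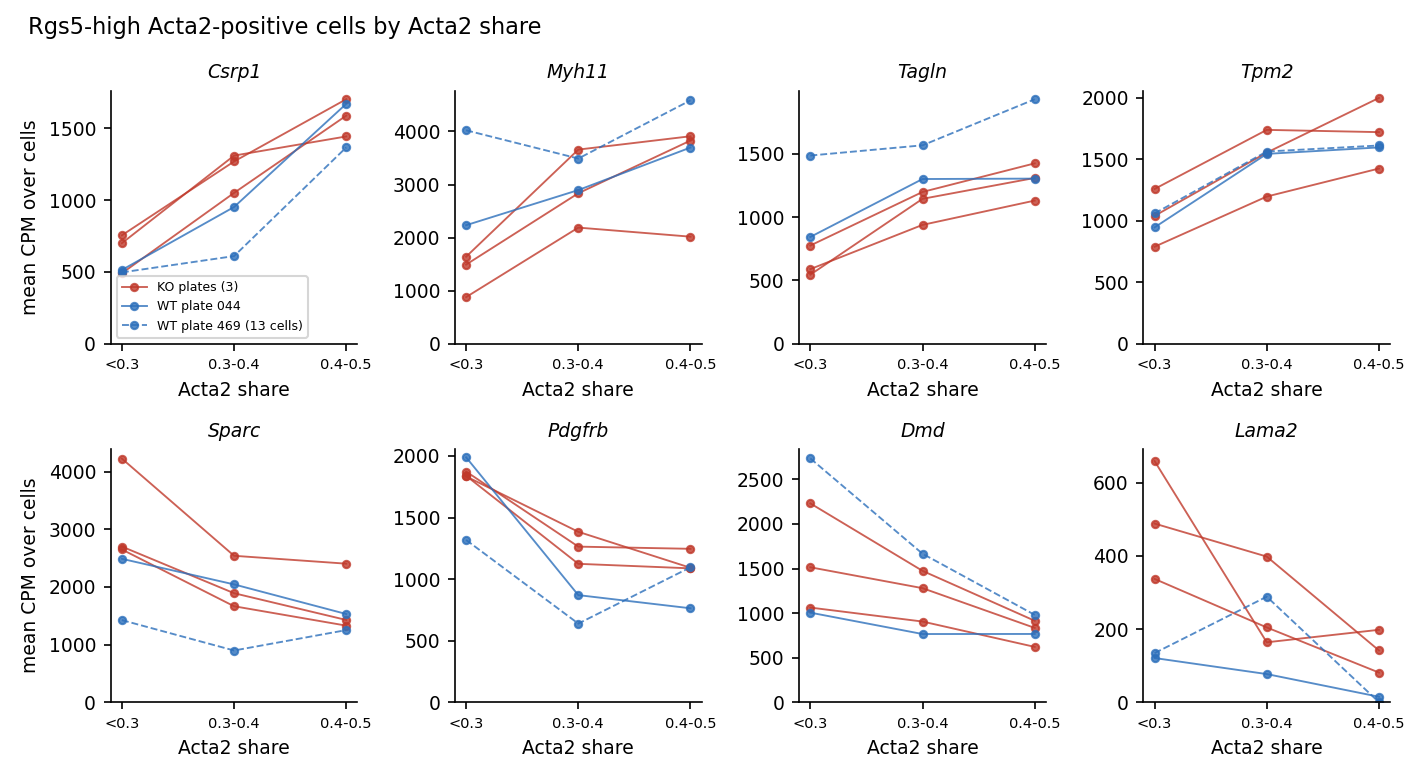
Mean CPM per cell (y axes) of 8 genes in members grouped by the Acta2 share (x axes: under 0.3, 0.3 to 0.4, 0.4 to 0.5); each line is 1 plate (red, KO; blue, WT, dashed for plate 469 with its 13 members). Csrp1 and Tagln were higher, and Dmd lower, at a share of 0.4 to 0.5 than under 0.3 on every plate.

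Members made up a larger share of the 4 ranges on KO plates, the ranges being members, both smooth muscle ranges and the Acta2-low range. Of the cells in the 4 ranges, members were 33.3%, 27.8% and 33.0% on KO plates 043, 467 and 471, against 18.9%, 7.27% and 16.9% on WT plates 044, 468 and 469. Exact binomial 95% intervals, which cover counting error only, were 27.8 to 39.2, 22.1 to 34.1 and 27.0 to 39.5% for the KO plates, against 14.5 to 23.9, 2.02 to 17.6 and 9.31 to 27.1% for the WT plates. The Acta2-low range, mostly cells with little Rgs5, held 44, 29 and 12 cells on the KO plates, against 9, 27 and 32 on the WT plates. Over members and the 2 smooth muscle ranges alone, shares were 39.6, 31.8 and 34.8% on the KO plates, against 19.5, 14.3 and 28.9% on the WT plates. The sort gate was not described and can set such shares. Vtn is part of the rule and was higher on KO plates in all cells with Acta2 of at least 1000 CPM, a set chosen without Vtn: means were 1855, 1884 and 1670 CPM on the KO plates, against 873, 600 and 768 CPM on WT plates 044, 468 and 469. With Rgs5 alone at or above Acta2 the mean share was 18.5% over the KO plates, against 9.91% over the WT plates. With the Acta2-low range also removed from the denominator, it was 20.9% (KO), against 14.6% (WT), and the plates overlapped.

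Vtn was also higher on KO plates among Acta2-positive cells without reads of a few fibroblast genes. In Acta2-positive cells with 0 reads of the fibroblast genes Dcn, Lum and Col1a1, Vtn averaged 1848, 1839 and 1571 CPM on KO plates 043, 467 and 471, against 854, 380 and 620 CPM on WT plates 044, 468 and 469. Col1a2, the most widely found fibroblast marker in members (78.4%), was not part of this filter. The part of fibroblast reads in the Vtn difference was not tested. In members Vtn had a log2 difference of 0.73 and did not reach the 2-fold limit.

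Across the transcriptome of the members, the balance of genes higher and lower in KO depended on which WT plates were used. A gene passed the size rule if its mean was at least 10 CPM in a genotype, if at least 10% of the members of a genotype had a read, if the difference was at least 2-fold on the log2(CPM + 1) scale and if KO and WT plates did not overlap. Of 9767 genes that met the first conditions, 798 (8.17%) were higher and 359 (3.68%) lower in KO, 11.8% in all. Plates did not overlap for 23.2% of genes at any size. Of the 798 higher genes, 161 had 0 reads in the 13 members of WT plate 469. Without WT plate 469, 977 genes were higher and 804 lower (1781 in all), and the median of all genes was -0.07. Without WT plate 044, 2626 were higher and 1436 lower (4062 in all). With plate 468 and its 4 members included, 744 were higher and 151 lower, and the median of all genes was 0.59. Among members with an Acta2 share of at least 0.3, as defined above, 1027 were higher and 957 lower. With plates 043, 044, 467, 469 and 471 the median of all genes was 0.13 under TMM, 0.11 with plain totals and 0.03 with DESeq2 size factors.

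Of the other Notch pathway genes, only Nrarp passed the size rule. Of 17 genes of the Notch pathway list, 0 passed as higher and 2, Notch3 and Nrarp, as lower, with a median of -0.14. Over all genes 8.17% passed as higher and 3.68% as lower, with a median of 0.13. At any size, 4 of the 17, Notch3 among them, had every KO plate below both WT plates, against 10% of all genes. The reverse held for 0 of the 17, against 13.2% of all genes. Nrarp, a feedback inhibitor gene induced by Notch signalling, was at 78.5, 119 and 84.2 CPM on the KO plates, against 207 and 281 CPM on the WT plates (log2 difference -1.38). Heyl, a Notch target of mural cells, was at 862, 528 and 671 CPM on the KO plates, against 464 and 641 CPM on the WT plates, and overlapped. Hes1 was at 171, 209 and 313 CPM on the KO plates, against 211 and 267 CPM on the WT plates. The receptor gene Notch1 was at 115, 245 and 408 CPM on the KO plates, against 128 and 325 CPM on the WT plates. For Hes1 and Notch1 the plates overlapped. The ligand gene Jag1 was at 227, 253 and 289 CPM on the KO plates, below 309 and 395 CPM on the WT plates.

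Of 15 measured genes of a list of arterial smooth muscle and Notch3-linked genes, 8 passed as lower in KO members and 0 as higher, against 3.68% lower over all genes. The list was put together with earlier results of these data known, so its direction is not independent evidence. All 15 had negative differences, with a median of -1.21. Against the Cnn1-high smooth muscle range, 3 of 18 listed genes measured there were counted as higher in members and 5 as lower (median -0.39). The higher ones were Casq2, Sp6 and Nrarp, all among the 8. The lower ones were Xirp1 and Stc2, also among the 8, and Grip2, Kcna2 and Chn2. Casq2, which encodes the calcium store protein calsequestrin, was at 70.9, 27.2 and 69.4 CPM on the KO plates, against 649 and 90.1 CPM on the WT plates, and had reads in 8.55% of KO and 53.7% of WT members. The difference was -2.22, but -0.80 without WT plate 044 and -1.96, no longer passing, without cells of other types. Pln, the phospholamban gene that restrains the calcium pump, was at 575, 672 and 476 CPM on the KO plates, against 1313 and 1093 CPM on the WT plates (-1.07), and -0.79 without cells of other types, under the limit. Cdh6, a cadherin gene, was at 35.0, 20.8 and 38.7 CPM, against 142 and 90.1 CPM (-1.86), and Sp6, a transcription factor gene, at 1.47, 16.5 and 13.4 CPM, against 75.4 and 77.4 CPM (-3.18). Kcna5, a voltage-gated potassium channel gene, and Xirp1, an actin-binding protein gene, had differences of -1.38 and -2.60, and Stc2, a stanniocalcin gene, was at 0 CPM on every KO plate, against 28.0 and 2.82 CPM on the WT plates. With plate 468 and its 4 members included, Cdh6, Casq2 and Pln still passed, while KO and WT plates overlapped or differed too little for Sp6 (-1.10), Kcna5 (-1.03), Xirp1 (-1.83), Stc2 and Nrarp (-0.97), the eighth gene that passed.

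Among ion channel and calcium handling genes, 5 of 31 passed as lower and 3 as higher, against 3.68% and 8.17% of all genes. Atp1b1, the beta subunit gene of the sodium pump, was the most uniform of the lower ones at 175, 222 and 260 CPM on the KO plates, against 707 and 760 CPM on the WT plates (-1.76). Reads were present in 60.7% of KO members, against 94.0% of WT members. Its difference lay between -1.89 and -1.61 with any plate left out. Kcnab1, a potassium channel beta subunit gene named after its values were seen, was at 152, 42.6 and 72.9 CPM on the KO plates, against 495 and 394 CPM on the WT plates (-2.49).

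Further genes were lower in KO members in both the lower-numbered and the higher-numbered plates. The size rule passed 46 as lower among the 2709 tested genes found in at least 50% of the members of a genotype. At least 2-fold lower in each of these plate sets were 21 of these 46, chosen after the values were seen. Among them Crispld2, which encodes a secreted protein, was at 121, 69.0 and 36.9 CPM on the KO plates, against 434 and 275 CPM on the WT plates (-2.34), and Mrgprf, an orphan receptor gene, at 92.0, 53.9 and 43.3 CPM, against 192 and 219 CPM (-1.76). Entpd1, the gene of the ATP-degrading enzyme CD39, differed by -1.67. With plate 468 included Crispld2 still passed (-2.11), and Mrgprf (-0.61) and Entpd1 (-0.77) did not. The largest negative differences by the rule were in rarer genes: Ntf3, the neurotrophin 3 gene, was at 1.47, 0 and 0 CPM on the KO plates, against 41.7 and 46.7 CPM on the WT plates, with reads in 0.427% of KO and 16.4% of WT members. Sgca, a sarcoglycan gene, was at 16.0, 0.99 and 25.8 CPM on the KO plates, against 186 and 116 CPM on the WT plates (-3.93), with reads in 7.69% of KO members, against 44.8% of WT members. Cdh4, Hunk, Gm15673, Zfp712, Dusp4 and Cpt1b were found in at most 13.4% of the members of a genotype. Tmem255b (-3.49), which lies antisense to Gas6, had reads in 8.12% of KO members, against 49.3% of WT members, and its reads cannot be assigned without strand.

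**Figure D4:**
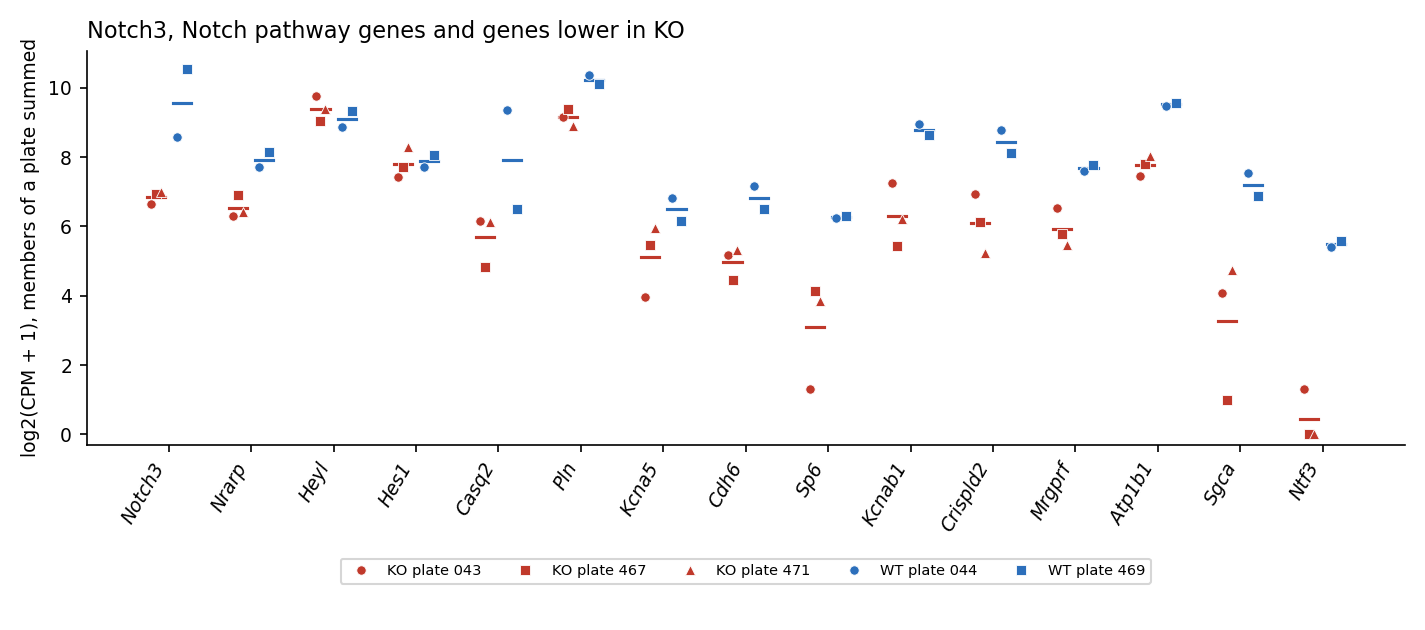
Levels of Notch3, 3 Notch target or feedback genes and genes lower in KO members, as log2(CPM + 1) of the summed members of a plate (y axis). Red symbols are the KO plates and blue symbols the WT plates, bars are means over plates; KO and WT symbols overlap for Heyl and Hes1 and are separate for the other genes.

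Contractile genes as a group showed no such shift. Of 28 measured, 1, the tropomyosin gene Tpm4, passed as higher and 0 as lower, with a median of 0.09, against 0.13 over all genes. Myh11 was at 1899, 2931 and 3221 CPM on the KO plates, against 3394 and 3768 CPM on the WT plates (-0.45), and Tagln at 974, 1060 and 1157 CPM, against 1279 and 1535 CPM (-0.40). They were 2 of the 6 contractile genes with every KO plate below both WT plates, where 10% of all genes were, but neither reached 2-fold. Tpm4 was at 1001, 419 and 510 CPM on the KO plates, against 410 and 176 CPM on the WT plates (1.15), but 0.54 without WT plate 469 and 0.89 without cells of other types, both under the limit.

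Pericyte markers went in both directions. Of 27 measured, Kcnj8, Abcc9 and Abca9 passed as higher and Notch3 and Cox4i2 as lower, with a median of 0.10. Over all genes 8.17% passed as higher and 3.68% as lower, with a median of 0.13. Kcnj8 was at 464, 195 and 186 CPM on the KO plates, against 91.1 and 95.2 CPM on the WT plates (1.45), with reads in 42.7% of KO members, against 22.4% of WT members. Abcc9, the partner subunit, was at 149, 122 and 133 CPM on the KO plates, against 10.5 and 0.88 CPM on the WT plates (4.87), with reads in 39.3% of KO members, against 8.96% of WT members. The 4 members of WT plate 468 had 175 CPM of Abcc9, so that with at least 3 members per plate the genotypes overlapped (3.22). For Kcnj8 the difference was 0.84 in members without fibroblast, astrocyte or oligodendrocyte markers above 100 CPM, under the 2-fold limit. Cox4i2, a lung-type subunit gene of cytochrome oxidase, was at 49.0, 49.7 and 92.4 CPM on the KO plates, against 137 and 119 CPM on the WT plates (-1.05). Pdgfrb, at 1588, 1240 and 1336 CPM on the KO plates, against 1089 and 956 CPM on the WT plates, differed by 0.44.

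Of 26 interstitial matrix genes, 4 passed as higher in KO members and 0 as lower (median 0.67), and of 21 basement membrane genes, 4 passed as higher and 0 as lower (median 0.48), against 8.17% higher over all genes. Col3a1, a fibrillar collagen gene, was at 1129, 436 and 336 CPM on the KO plates, against 88.0 and 16.0 CPM on the WT plates (3.82). Col8a1, the gene of a short-chain collagen of vessel walls, was at 380, 217 and 206 CPM on the KO plates, against 106 and 0 CPM on the WT plates (4.64), and differed by 1.27 without WT plate 469. Col6a1 and Col5a1 differed by 3.75 and 2.71, and Col5a1 by 2.16, no longer passing, without cells of other types. Lama2 was at 244, 275 and 296 CPM on the KO plates, against 56.1 and 107 CPM on the WT plates (1.79), but at 808 CPM in the 4 members of WT plate 468, with which the genotypes overlapped (0.76). Lamb1 was at 56.6, 43.1 and 81.7 CPM on the KO plates, against 16.7 and 3.53 CPM on the WT plates (2.73). Nid2 and Col4a6 also passed, Nid2 no longer with plate 468 included (1.47).

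Markers of other cell types moved with these genes. Fibroblast, astrocyte or oligodendrocyte markers summed to over 100 CPM in 71 of 234 KO members (30.3%), against 7 of 71 WT members (9.86%). The 12 fibroblast markers summed to between 420 and 1407 CPM on the KO plates, against 372 and 674 CPM on the WT plates, and their most widely found gene, Col1a2, had reads in 78.4% of members. Of 10 fibroblast markers tested, 0 passed. Dcn was at 202, 64.2 and 17.6 CPM on the KO plates, against 103 and 0.529 CPM on the WT plates. Without the cells above 100 CPM, Col3a1, Col6a1, Col8a1, Lama2 and Lamb1 still differed by 3.22, 3.10, 4.60, 1.74 and 2.43 and passed the rule. Mbp, the myelin basic protein gene, was at 114, 120 and 35.3 CPM on the KO plates, against 5.09 and 1.23 CPM on the WT plates (4.43), with 0.54 without those cells, and the oligodendrocyte markers Mog and Opalin had 0 reads in members. The 9 oligodendrocyte markers summed to between 93.9 and 282 CPM on the KO plates, against 36.5 and 56.3 CPM on the WT plates. The 12 astrocyte markers summed to 1908 to 2649 CPM, against 1842 to 1863 CPM, and the 18 endothelial markers to 927 to 1546 CPM, against 1029 to 1333 CPM. The 14 microglia markers summed to 75.9 to 174 CPM on the KO plates, against 31.0 and 403 CPM, the 10 ependymal markers to 80.5 to 209 CPM, against 69.1 and 135 CPM, the 9 neuron markers to 49.7 to 208 CPM, against 31.8 and 210 CPM, and the 5 erythrocyte markers to at most 2.84 CPM, against 8.64 CPM. Their part in the remaining differences was not tested.

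The largest positive differences by the rule included genes of structure and inflammation. Fhl2, a LIM protein gene, was at 240, 183 and 116 CPM on the KO plates, against 18.5 and 0.18 CPM on the WT plates (5.18), with reads in 43.6% of KO members, against 8.96% of WT members. The difference was 4.98 without cells of other types and 3.15 without WT plate 469. The chemokine genes Cxcl1 and Ccl19 were at 220, 70.5 and 118 CPM and at 70.5, 21.6 and 16.8 CPM on the KO plates, against 13.6 and 0 CPM and 0.21 and 0 CPM on the WT plates. Ccl19 had reads in 26.1% of KO members, against 1.49% of WT members. Without cells of other types Cxcl1 (3.58) and Sdc1 no longer passed, and Ccl19 differed by 3.19. Of 10 inflammation and adhesion genes, 3 passed as higher, against 8.17% of all genes. The third was Nfkb2, which no longer passed without those cells (0.43). Sdc1, the syndecan 1 gene, was at 83.8, 20.7 and 16.1 CPM on the KO plates, against 0 on both WT plates, and was found in 12.0% of KO members. Nhsl2, Sarm1, Avl9 and Mdn1 completed the 10 largest with Abcc9 and Col8a1, each found in at most 25.6% of KO members apart from those 2.

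Genes that respond to interferon were mostly higher in KO members. Of 17 tested, 4 passed as higher, against 8.17% of all genes, and 0 as lower, against 3.68%. A higher mean in KO was found for 15 of the 17, and the median was 0.52, against 0.13 over all genes. Gbp2, a guanylate-binding protein gene, was at 193, 62.2 and 85.8 CPM on the KO plates, against 44.7 and 12.5 CPM on the WT plates (2.04), and Ifit3 at 58.8, 20.3 and 14.4 CPM, against 7.63 and 0.35 CPM (2.98). Irf7 also passed, but no longer did so without cells of other types. Ifitm3 and B2m, found in over 90% of members, differed by 0.13 and 0.52. Of 28 immediate early and stress genes, 0 passed in either direction (median 0.05).

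More widely found genes were higher in KO members in both the lower-numbered and the higher-numbered plates. The size rule passed 61 as higher among the 2709 tested genes found in at least 50% of the members of a genotype. At least 2-fold higher in each of these plate sets were 26 of these 61, chosen after the values were seen. Amotl2, an angiomotin gene of the Hippo pathway, was at 309, 129 and 260 CPM on the KO plates, against 87.8 and 6.00 CPM on the WT plates (3.14). Flt1, a receptor for vascular endothelial growth factor and an endothelial marker, was at 130, 76.5 and 73.6 CPM, against 22.4 and 3.88 CPM (3.09), Lin7c at 231, 127 and 122 CPM, against 62.9 and 9.52 CPM (2.57), and Cgnl1, a cell junction gene, at 128, 214 and 284 CPM, against 60.3 and 10.4 CPM (2.91). The size rule required the KO plates of each of these to lie above both WT plates. In each, WT plate 469 was the lowest. Without it the differences were 1.30, 1.96, 1.27 and 1.70.

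Transporters and transcription factors added single genes. For the lists that follow, the shares over all genes were 8.17% higher and 3.68% lower, with a median of 0.13. Of 18 pericyte transporter and metabolism genes, 4 passed as higher and 1, Cox4i2, as lower. Slc7a2, a transporter of arginine and other cationic amino acids, was the most uniform at 300, 342 and 327 CPM on the KO plates, against 109 and 120 CPM on the WT plates (1.49), with reads in 79.1% of KO members, against 44.8% of WT members, and between 1.42 and 1.56 with any plate left out. Of 22 mural transcription factor genes, 2 passed as higher: Prrx1, a homeobox gene of mesenchyme, was at 274, 278 and 160 CPM on the KO plates, against 118 and 63.1 CPM on the WT plates (1.41, and 0.96 without WT plate 469), and Sox4 differed by 2.48. Of 20 genes of PDGF, TGF-beta and BMP signalling, Acvrl1 and Bmp4 passed as higher and Pdgfb as lower (-1.05). Of 25 vasoactive receptor and G protein genes, Agtr1b and Rgs16 passed as higher. Without cells of other types Acvrl1 (1.93) and Agtr1b (3.31) no longer passed. None passed among 28 oxidative phosphorylation, 15 glycolysis and hypoxia and 16 cholesterol synthesis genes, with medians of -0.12, -0.17 and 0.22.

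**Figure D5:**
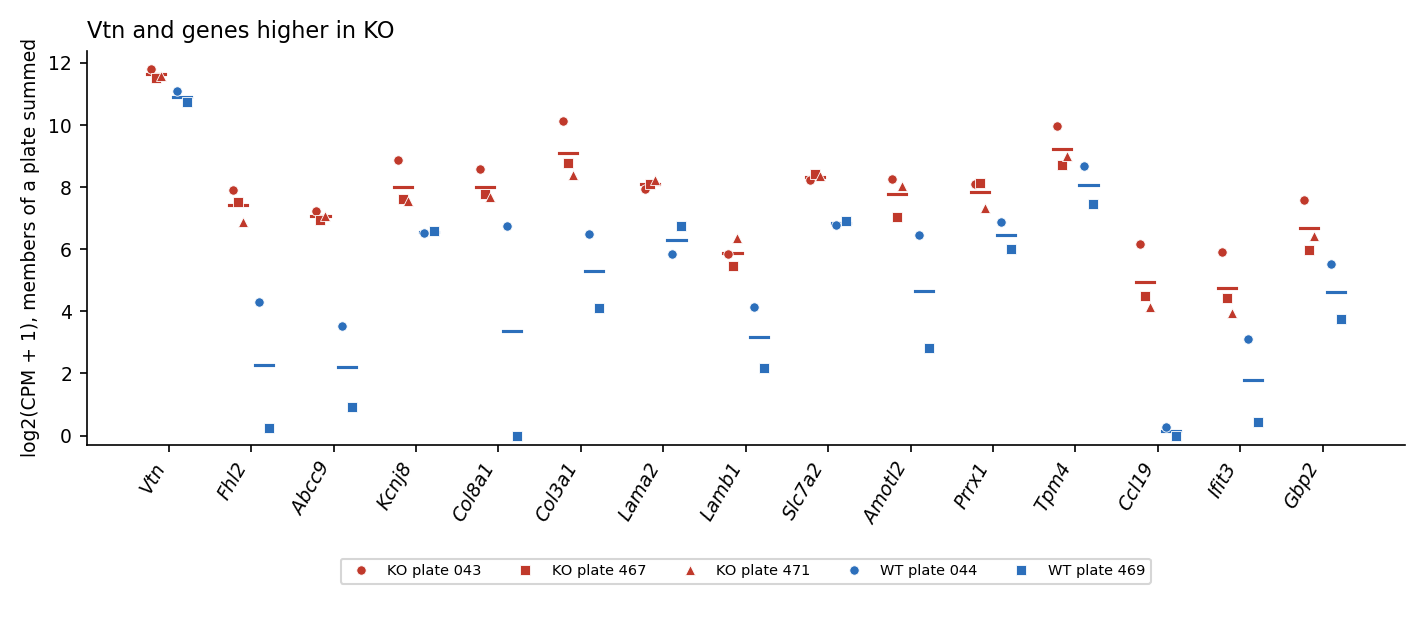
Levels of Vtn and of genes higher in KO members, as log2(CPM + 1) of the summed members of a plate (y axis); red symbols are KO plates, blue symbols WT plates and bars means over plates. All 3 KO plates lie above both WT plates for each gene, and the WT plates differ most for Col8a1 (106 and 0 CPM on plates 044 and 469) and Fhl2.

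Differences between genotypes in the members recurred in part in the smooth muscle ranges, with WT plates 044, 468 and 469 used there. Notch3 differed by -2.74 in members when the 3 ranges were scaled together, -2.67 in the Cnn1-low and -2.77 in the Cnn1-high range. Fhl2 had a mean of 181 CPM in KO members, against 9.55 CPM in WT members, and of 84.5 CPM (KO) against 0.0422 CPM (WT) in Cnn1-low cells and 53.4 CPM (KO) against 1.4 CPM (WT) in Cnn1-high cells. Casq2 was at 56.1 CPM in KO members, against 379 CPM in WT members, at 1.27 CPM (KO) against 182 CPM (WT) in Cnn1-low cells and at 2.70 CPM (KO) against 96.9 CPM (WT) in Cnn1-high cells. Kcnab1 was at 89.7 CPM in KO members, against 458 CPM in WT members, but at 340 CPM (KO) against 454 CPM (WT) in Cnn1-low cells and 480 CPM (KO) against 690 CPM (WT) in Cnn1-high cells. Abcc9 was at 136 CPM in KO members, against 5.80 CPM in WT members, at 12.7 CPM (KO) against 0.363 CPM (WT) in Cnn1-low cells and 7.94 CPM (KO) against 1.04 CPM (WT) in Cnn1-high cells. The difference between ranges was not tested.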

How the data were processed

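Raw read counts per gene and cell were deposited by the authors as integers, with unequal sums between cells. TopHat2 2.1.1, SAMtools 0.1.18, featureCounts of Subread 1.4.6-p5 and GRCm38 (mm10) are named in the submitters' processing notes. No annotation version, strand setting or cell filter was given in the sources used here. Cells with at least 50000 counts were kept. Each GEO sample is 1 cell and the labels name no animal, so no p-value was computed. Counts of members were summed per plate with at least 10 members (3 KO and 2 WT plates), scaled by TMM (edgeR 4.0.16, R 4.3.3) and compared as log2(CPM + 1), KO minus WT. No edgeR or DESeq2 (1.42.0) test was run. Batches were read from plate numbers alone. Reads of amplified cDNA are not independent molecules, so intervals cover counting error only.

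The members and lists were chosen with earlier results of these data known. Named genes were Notch3, rule genes and markers, the 10 largest and 10 smallest differences past the size rule, up to 4 per list, the 10 largest and 10 smallest against each range at 30 CPM or more on the higher side of every plate, and 8 at each end along the Acta2 share. Genes outside this rule, named after their values were seen, were Notch pathway and list genes given for comparison and those said so in the text. No doublet caller was run, since wells were meant to hold 1 cell. All columns were used. Some genes that the naming rule covers are not reported here.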

Additional observations from a re-analysis of the deposited data

Results flagged for a closer look

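The difference between genotypes ran in opposite directions in the members and in the Cnn1-low smooth muscle range for 2 genes. Their KO and WT plates did not overlap in either set, but the sets held unlike plates. The members used 2 WT plates and the Cnn1-low range 3, with plate 468 added. Slc30a10, a manganese transporter gene, had a mean of 47.9 CPM in KO members, against 7.09 CPM in WT members (log2 difference 3.504), and of 11.7 CPM in KO Cnn1-low cells, against 27.4 CPM in WT Cnn1-low cells (-1.53). Slco1a4, an organic anion transporter gene and endothelial marker, was at 17.8 CPM in KO members, against 1.24 CPM in WT members (2.58), and at 0.221 CPM in KO Cnn1-low cells, against 1.51 CPM in WT Cnn1-low cells (-1.001). Reads of Slco1a4 were present in 10.3% of KO members, against 16.4% of WT members, and its KO level was 41.6 CPM on the highest plate and 3.34 CPM on the lowest. Its Cnn1-low levels were under 2 CPM on every plate. These values come from scaling the ranges together. In members scaled alone and with plate 468 included, Slc30a10 differed by 1.51 and no longer passed the size rule, while Slco1a4 still passed (2.66). Without cells of other types Slco1a4 differed by 2.05 and no longer passed, while Slc30a10 still passed (3.855). The difference between the sets was not tested.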

How the results depend on the processing

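No paired analysis was possible because no replicate number links KO and WT plates. The count of 1157 genes was within 1.5 times under 10 alternatives, and it was 2208 with no filter on low values, 1772 with at least 20 members per plate, 2075 on plates 043 and 044 alone, 3929 on plates 467, 469 and 471 alone, 2473 with Rgs5 alone at least Acta2 and 1984 at an Acta2 share of at least 0.3. Leaving out a plate gave 1436 to 4062. Each of these but the first compared KO with a single WT plate, except where a KO plate was left out. Using Rgs5 alone, an Acta2 share of at least 0.3 or the smooth muscle denominator, leaving plates out of the shares, and every alternative for the ranges and for the Acta2 share were chosen after seeing the data. The Notch3 difference ran from -3.68 to -1.73 with a plate left out. The share difference of 17.1 percentage points was 8.55 with Rgs5 alone and 6.35 with the smooth muscle denominator as well, and 13.5 to 19.3 with a plate left out. Against the Cnn1-low range 477 genes were counted, 204 at a pseudocount of 10 CPM and 571 to 762 with a plate left out. Against the Cnn1-high range 822 were counted, 488 at a pseudocount of 10 CPM and 940 to 1116 with a plate left out. The 150 genes along the Acta2 share were 138 to 225 with a plate left out. Among 80 named genes and 1680 values, 1568 stayed, 107 moved and 5 reversed: Csf1r 0.0014 with at least 3 members per plate and 0.759 with Rgs5 alone, Slc6a9 0.394 with at least 3 members per plate, Cacnb3 -0.208 with Rgs5 alone and Bmp4 -0.545 at an Acta2 share of at least 0.3. Of the 78 named genes past the size rule, 52 still passed in the same direction with at least 3 members per plate, 60 without cells of other types and 62 with Rgs5 alone. The cause was not tested. WT members limit every comparison, with 13 on plate 469.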
